A study of Mus musculus with 2 samples.

Results

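Iron and heme handling was followed through 8 genes in mononuclear phagocytes of mouse melanoma: Slc48a1, Hmox1, Fth1, Ftl1, Slc40a1, Cp, Slc11a1 and Tfrc. The members were the rows of both count matrices with these symbols, 8 of the 27998 genes listed. The cells were tumor mononuclear phagocytes (TMPs) sorted as MerTk+ CD64+ from B16 tumors, a transplantable melanoma, in C57Bl/6 mice. An Fcmr+/+ library was set beside an Fcmr-/- library, in which the mice lack the Fc receptor for IgM in all tissues. The controls were littermates, and neither the number of mice pooled per library nor, for these samples, their age is given in the sources used here. Both libraries came from tumors digested with enzymes while warmed before the sort, and all mice carried B16 tumors.

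Macrophages take up red cells, dying cells and hemoprotein, and are the tissue cells that recycle iron from them. Slc48a1 (HRG1) moves heme from the phagolysosome to the cytosol, where Hmox1, heme oxygenase-1, opens the heme ring and frees iron, carbon monoxide and biliverdin. Ferritin, a shell of heavy (Fth1) and light (Ftl1) chains, stores the iron. Slc40a1, ferroportin, is the exporter of iron from the cell, and Cp, ceruloplasmin, oxidizes the exported iron for loading on transferrin. Slc11a1 (NRAMP1) pumps divalent metal out of the phagosome, and Tfrc, transferrin receptor 1, brings transferrin-bound iron in. In tumors, macrophages that release iron and those that hold it have both been described.

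Part of this system is set by iron-responsive elements (IREs), short stem-loops in untranslated regions that the iron regulatory proteins bind when cytosolic iron is low. Bound at a 5′ end they block translation, and bound at a 3′ end they protect the transcript from decay, so that a count of RNA can follow the second and not the first. A search of the sense strand of whole GENCODE vM21 transcripts (GRCm38) for a C, 5 bases, the letters CAGTG, a base other than G and 5 bases that pair with the first 5, G-T pairs allowed, found an element in 4 of the 8 members and in 222 of 21901 protein-coding genes (1.01%). The 5′ elements of Fth1 (chr19:9982731-9982760, plus strand), Ftl1 (chr7:45459779-45459808, minus strand) and Slc40a1 (chr1:45925465-45925494, minus strand) and the 4 3′ elements of Tfrc (chr16:32631218-32631247, chr16:32631597-32631626, chr16:32631662-32631691 and chr16:32631709-32631738, plus strand) are shown because they divide the members by how iron acts on their RNA. Each is 30 bases, with the bulged C and the CAGTGN loop in capitals.
Fth1 5′ UTR: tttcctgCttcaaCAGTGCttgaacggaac
Ftl1 5′ UTR: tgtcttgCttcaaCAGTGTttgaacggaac
Slc40a1 5′ UTR: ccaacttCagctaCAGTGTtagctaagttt
Tfrc 3′ UTR, element 1: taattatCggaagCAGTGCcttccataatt
Tfrc 3′ UTR, element 2: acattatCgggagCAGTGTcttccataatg
Tfrc 3′ UTR, element 3: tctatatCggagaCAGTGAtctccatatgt
Tfrc 3′ UTR, element 4: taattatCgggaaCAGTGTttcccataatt
The remaining 4 members, Hmox1, Slc48a1, Slc11a1 and Cp, held no match to these letters. A match describes the sequence and does not show that a protein bound it.

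The cells kept numbered 6352 with 128408544 counts of unique molecular identifiers (UMIs) for Fcmr+/+ and 7999 with 124630621 UMIs for Fcmr-/-, with medians of 17974 and 12911 UMIs per cell. Fcmr had 7 and 6 UMIs, too few to check the genotypes. All 9 genes of a macrophage list were detected, with summed levels of 14970.0 and 15291 CPM, UMIs per 1000000. The libraries shared 73 barcodes. Lists of other cell types had summed levels, in Fcmr+/+ and Fcmr-/- cells, of 78.0 and 108 CPM for 7 melanoma genes (Mitf, which macrophages also express, the highest at 37.5 and 44.1 CPM), 25.7 and 14.0 CPM for 6 erythroid genes, and 0.864 and 14.5 CPM for 6 T and NK cell genes. Of 10 genes induced by stress and dissociation, 2 were at least 1.5-fold lower in Fcmr-/- cells (Egr1, log2 ratio -1.46, and Jun, -0.70) and 0 higher. The part of these genes in the results below was not tested. Without the cells that held 3 or more melanoma UMIs, 3 or more erythroid UMIs or 2 or more T and NK UMIs, the log2 ratio of Hmox1 was -0.77, -0.80 and -0.80, beside -0.80 in all cells.

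The first comparison was between the genotypes over all cells. Hmox1 and Tfrc were lower in Fcmr-/- cells, Slc11a1 was somewhat higher, and the ferritin chains, the 2 genes with the most UMIs of any, were nearly level. With 1 library per genotype no test was possible. Ranges in parentheses after a level or a ratio are exact 95% intervals. They cover counting error only, without the spread between cells or between mice. A gene was called when the CPM ratio, after adding 1 CPM, passed 1.5-fold. Of 7248 genes with at least 10 CPM in either library, 1.504% were called lower and 2.43% higher in Fcmr-/- cells. Of the members, 7 had that level, and 2 of the 7 were called lower and 0 higher. Their median log2 ratio (Fcmr-/- over Fcmr+/+) was -0.30, beside 0.0029 over all genes compared. The members were chosen with earlier results of these data known, so these figures are a description and cannot show that iron genes stand apart. UMIs were counted from transcript 3′ ends, so no division by length was made and levels are CPM throughout.

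Of the genes for heme entry and breakdown, Hmox1 was called lower in Fcmr-/- cells and Slc48a1 was not. Slc48a1 (chr15:97778520-97792692, plus strand) had 196 CPM in the Fcmr+/+ library (194 to 198) and 154 CPM in the Fcmr-/- library (152 to 156), a log2 ratio of -0.34 (-0.37 to -0.32), short of 1.5-fold. Hmox1 (chr8:75093621-75100589, plus strand) had 2998 CPM in the Fcmr+/+ library (2988 to 3007) and 1721 CPM in the Fcmr-/- library (1713 to 1728). Its log2 ratio was -0.80 (-0.81 to -0.79), a level 1.74-fold higher in Fcmr+/+ cells, and it was number 41 from the lowest of the 7248 genes. Hmox1 was also abundant, number 56 by UMIs among all genes. Slc48a1 overlaps Hdac7, which lies on the other strand.

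Iron storage differed little between the libraries. Fth1 (chr19:9980598-9985098, plus strand) had 26592 CPM in the Fcmr+/+ library (26564 to 26620.3) and 25108 CPM in the Fcmr-/- library (25080.1 to 25136), a log2 ratio of -0.08 (-0.09 to -0.08). Ftl1 (chr7:45457944-45459884, minus strand) had 20616 CPM in the Fcmr+/+ library (20591 to 20641) and 18451 CPM in the Fcmr-/- library (18427 to 18475), a log2 ratio of -0.16 (-0.16 to -0.16). UMIs of both were present in every cell of both libraries. Their counts are uncertain where reads were shared with processed copies, of which RefSeq lists 7 for the ferritin family. The copy Ftl1-ps1, which the count table lists as Gm10116, had 59.4 and 76.1 CPM (log2 ratio 0.35), the direction opposite to that of Ftl1.

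Iron movement across membranes divided. The exporter Slc40a1 (chr1:45908068-45926523, minus strand) had 36.5 CPM in the Fcmr+/+ library (35.4 to 37.5) and 29.4 CPM in the Fcmr-/- library (28.5 to 30.4), a log2 ratio of -0.30 (-0.36 to -0.24). The phagosomal pump Slc11a1 (chr1:74375195-74386062, plus strand) had 169 CPM in the Fcmr+/+ library (166 to 171) and 223 CPM in the Fcmr-/- library (221 to 226), a log2 ratio of 0.40 (0.38 to 0.43), the only member compared with a higher level in Fcmr-/- cells. The importer Tfrc (chr16:32608920-32632794, plus strand) had 132 CPM in the Fcmr+/+ library (129.5 to 134) and 68.5 CPM in the Fcmr-/- library (67.0 to 70.0), a log2 ratio of -0.93 (-0.97 to -0.89), a level 1.92-fold higher in Fcmr+/+ cells. The ferroxidase Cp (chr3:19957054-20009145, plus strand, overlapping Hps3 on the other strand) had 1.27 CPM in the Fcmr+/+ library (1.08 to 1.48) and 3.34 CPM in the Fcmr-/- library (3.02 to 3.67), or 163 and 416 UMIs in all. It was under 10 CPM in both libraries and was not compared. Among the genes with an IRE, the log2 ratios were -0.08, -0.16 and -0.30 for the 5′ group (Fth1, Ftl1, Slc40a1) and -0.93 for Tfrc.

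**Figure D1:**
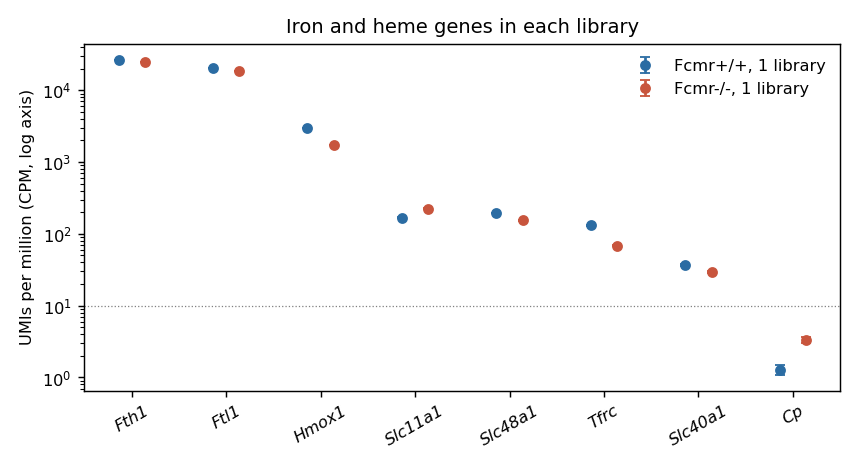
Levels of the 8 genes in the Fcmr+/+ (blue) and Fcmr-/- (red) library, 1 library each, in CPM on a log axis; bars are exact 95% Poisson intervals, mostly smaller than the points, and the dotted line marks 10 CPM. Of the pairs above the line, Hmox1 (2998 and 1721 CPM) and Tfrc (132 and 68.5 CPM) stand furthest apart. The points of Cp (1.27 and 3.34 CPM) are further apart, but both lie below the line, and Cp was not compared.

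The second comparison was between macrophage states. Cells of both libraries were clustered together after iron and heme genes had been taken out of the variable genes, so that the clusters did not use the members' levels, and 10 clusters were found. Their levels are given as a description, with no test, because the cells and not the samples were divided. Cluster 1 was led by Iigp1, Serpina3g and Cxcl9, genes induced by interferon-γ, and held 89 Fcmr+/+ and 2299 Fcmr-/- cells. A cluster 96.3% of 1 library cannot be told apart from that library. Cluster 2 (1266 and 809 cells) was led by Ccl17 and Il1r2 and had the highest MHC class II list. Cluster 3 (788 and 892 cells) was led by the chemokine genes Cxcl3 and Ppbp and held Il1a and Il1b among its leading genes. Cluster 4 (1178 and 382 cells) was led by Tfrc, a gene the clustering did not use, Cnrip1 and Gas6, and cluster 5 (723 and 755 cells) by mitosis genes such as Cenpf. Cluster 6 (630 and 791 cells) had the highest hypoxia list and was led, beside hemoglobin transcripts from a few cells, by Adm and Nos2. Cluster 7 (708 and 459 cells) was led by Acp5, Cyp4f18 and Apoe, and cluster 8 (278 and 746 cells) by Mfge8, Plpp3, Ctsk and Gpnmb. Cluster 9 (232 and 685 cells) was led by Rsad2, Cmpk2 and Ifit genes, targets of type I interferon, and cluster 10 (460 and 181 cells) by Adm, Pdgfa and Bhlhe41.

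Between clusters, the importer and the exporter varied far more than the stores. Of the 7248 genes, 40.5% had a level in their highest cluster at least 2-fold that in their lowest, and 10.3% at least 4-fold. Among the 7 members compared, 6 reached 2-fold, all but Slc11a1, and 2 reached 4-fold, Tfrc and Slc40a1. Tfrc ranged 18.9-fold, from 15.9 CPM in cluster 6 and 19.1 CPM in cluster 9, whose intervals overlapped, to 142 CPM in the dividing cluster 5 and 301 CPM in cluster 4. Slc40a1 ranged 10.4-fold and had the same extremes, with 7.01 CPM in cluster 6 and 73.1 CPM in cluster 4. The intervals of its next 3 clusters overlapped in order, with 41.9 CPM in cluster 10, 41.1 CPM in cluster 8 and 37.5 CPM in cluster 5. Across the 20 sums of cluster and library, log2 levels of Slc40a1 and Tfrc had a Pearson r of 0.83. These 20 sums are not independent samples, and r is given as a description. Depth differed too, with medians of 21984 and 26285 UMIs per cell in clusters 4 and 5 and 8929 and 8758 in clusters 6 and 9. The order of depth was not that of Tfrc throughout, since cluster 1 had a higher median than cluster 8 (16410 and 14420) and less Tfrc. The part of depth was not tested.

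Heme breakdown and storage had other highs. Hmox1 was highest in cluster 10 (4320.1 CPM), followed by cluster 3 (3217 CPM) and clusters 6 and 4 (3121 and 3107 CPM, with overlapping intervals), and lowest in clusters 2 and 1 (1552 and 1538 CPM, also overlapping). Cluster 10 also had the highest melanoma list, at 197 CPM against 70.5 to 107 CPM elsewhere, and without cells holding 3 or more UMIs of that list its Hmox1 was 4266 CPM. Fth1 was highest in the hypoxia-high cluster 6, with 45901 CPM against 17494 CPM in cluster 2. Ftl1 was highest in cluster 8, with 32267 CPM against 12649 CPM in cluster 2. Thus, with both libraries summed, cluster 6 stood first of 10 for Fth1 and last of 10 for both Tfrc and Slc40a1. In Fcmr-/- cells alone, Tfrc was lowest in cluster 9.

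Slc48a1 was highest in clusters 8 and 4 (243 and 231 CPM, with overlapping intervals) and lowest in clusters 9 and 2 (119 and 112 CPM, also overlapping). Slc11a1 was the flattest member, from 161 CPM in cluster 5 to 251 CPM in cluster 8 and 273 CPM in cluster 1, and its intervals overlapped from neighbor to neighbor in clusters 4, 10, 6, 2 and 5. Cp, not compared, lay between 0.153 CPM in cluster 3 and 4.37 CPM in cluster 1. Within each library alone the highest cluster was the same for 6 of the 8 genes, the exceptions being Slc11a1 (cluster 8 in Fcmr+/+ and cluster 1 in Fcmr-/- cells) and Cp (clusters 1 and 2).

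**Figure D2:**
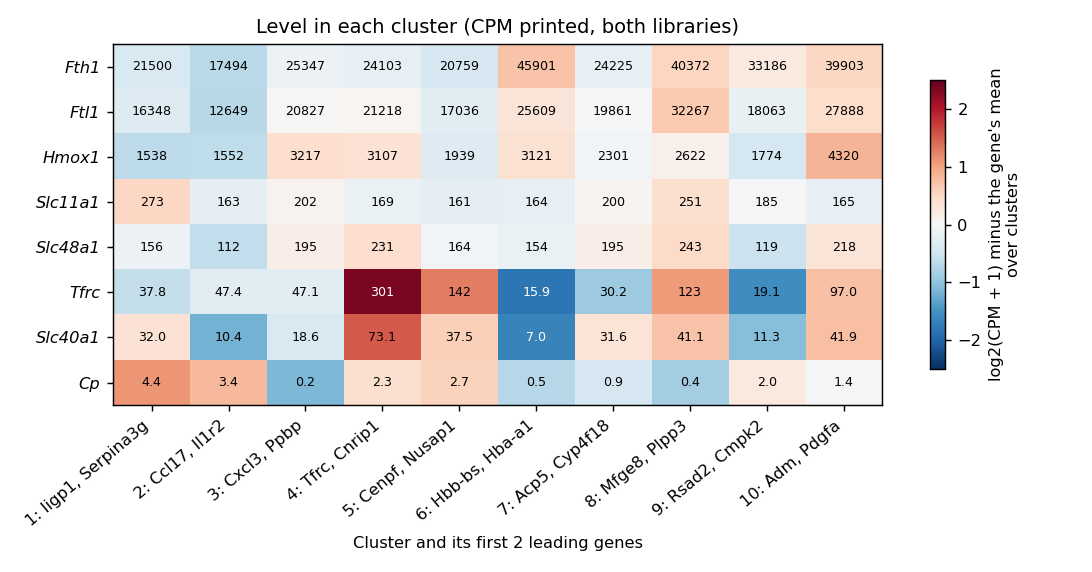
Level of each gene (rows) in each of 10 clusters (columns, with the first 2 leading genes), both libraries summed; the printed numbers are CPM, and color shows log2(CPM + 1) minus the gene's mean over clusters. Tfrc (15.9 to 301 CPM) and Slc40a1 (7.01 to 73.1 CPM) share a high in cluster 4 and a low in cluster 6, where Fth1 is highest.

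The third comparison asked whether the difference between the libraries lay within the clusters or in how much of each library the clusters held. For Hmox1 most of it remained within them at the cluster shares of the Fcmr+/+ library. Hmox1 was lower in Fcmr-/- cells in 9 of 10 clusters, by log2 ratios from -0.49 in cluster 8 to -0.92 in cluster 3, where it had 4061 CPM in Fcmr+/+ and 2147 CPM in Fcmr-/- cells. The exception was cluster 1, with 1121 CPM in its 89 Fcmr+/+ cells and 1557 CPM in its Fcmr-/- cells. Ftl1 too was lower in 9 clusters, by at most 0.32 on the log2 scale, and Hmox1 and Ftl1 were the 2 of 7 members lower in at least 9, beside 12.0% of all genes. None of the 7 was lower in every cluster (0 of 7, beside 5.41% of genes) or higher in every cluster (0 of 7, beside 8.79%). Fth1 was lower in 7 clusters, with log2 ratios from -0.28 in cluster 5 to 0.10 in cluster 1. Slc48a1 was lower in 8 clusters, from -0.22 to -0.45, and its intervals in clusters 1 and 9 included 0. With each cluster of Fcmr-/- cells weighted to its share of UMIs, not of cells, in the Fcmr+/+ library, Hmox1 was 1812 CPM. Its log2 ratio was then -0.73, past 1.5-fold. Hmox1 was the only member of 7 lower by that much, beside 0.579% of all genes. This weighting was chosen after the data had been seen. It gave little weight to cluster 1, the exception, which held 1.40% of Fcmr+/+ and 28.7% of Fcmr-/- cells. Weights from the Fcmr-/- library were not tried, so the part within clusters is given for the Fcmr+/+ shares only.

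For Tfrc the same weighting took most of the difference away. At the cluster shares of the Fcmr+/+ library, Fcmr-/- cells had 117 CPM of Tfrc and the log2 ratio was -0.16 instead of -0.93. In cluster 4, which held 18.5% of Fcmr+/+ and 4.78% of Fcmr-/- cells, Tfrc was 302 and 297 CPM, with a log2 ratio of -0.02, interval -0.09 to 0.05. Without cluster 4 the ratio over all other cells was -0.55, short of 1.5-fold. Other clusterings gave weighted ratios from -0.24 to -0.15, but -0.61 when genes were scaled within each library before clustering, so the share of the difference that lay within clusters depended on how they were drawn. The weighted ratio of Hmox1 stayed between -0.77 and -0.68 over the 5 other clusterings.

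Tfrc and Slc40a1 moved in opposite directions in different clusters. Tfrc was lower in Fcmr-/- cells in cluster 3 (58.7 and 32.4 CPM, log2 ratio -0.84, interval -1.01 to -0.67) and in the dividing cluster 5 (179 and 100.2 CPM, -0.83, interval -0.91 to -0.75). It was higher in cluster 10 (84.6 and 139 CPM, 0.71, interval 0.54 to 0.88). Without cells holding 3 or more melanoma UMIs, Tfrc was 81.3 and 119.5 CPM in cluster 10 and 156 and 117 CPM in cluster 5. Both differences then fell short of 1.5-fold, while in cluster 3 Tfrc was 49.6 and 29.8 CPM. Over all clusters that filter left out 1321 Fcmr+/+ and 1685 Fcmr-/- cells. It counted UMIs before thinning, those of Mitf among them, and the part of melanoma RNA in these differences was not tested. Slc40a1 was lower in cluster 3 (23.3 and 12.6 CPM, -0.84, interval -1.11 to -0.58) and cluster 8 (58.4 and 31.9 CPM, -0.85, interval -1.07 to -0.63). It was higher in cluster 7 (23.4 and 48.4 CPM, 1.02, interval 0.76 to 1.28) and cluster 1 (15.1 and 32.8 CPM, 1.07, interval 0.57 to 1.61). With all cells kept, this pattern, at least 1.5-fold higher in 1 cluster and at least 1.5-fold lower in another, was found in 1.61% of all genes. These 2 members were among them. At the Fcmr+/+ cluster shares Slc40a1 had a log2 ratio of 0.02, and without cluster 4 a ratio of 0.0043. Slc11a1 was higher in 7 clusters, with an interval that included 0 in cluster 3, and most in cluster 9 (113 and 213 CPM, 0.92, interval 0.74 to 1.09), and its weighted log2 ratio was 0.14.

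**Figure D3:**
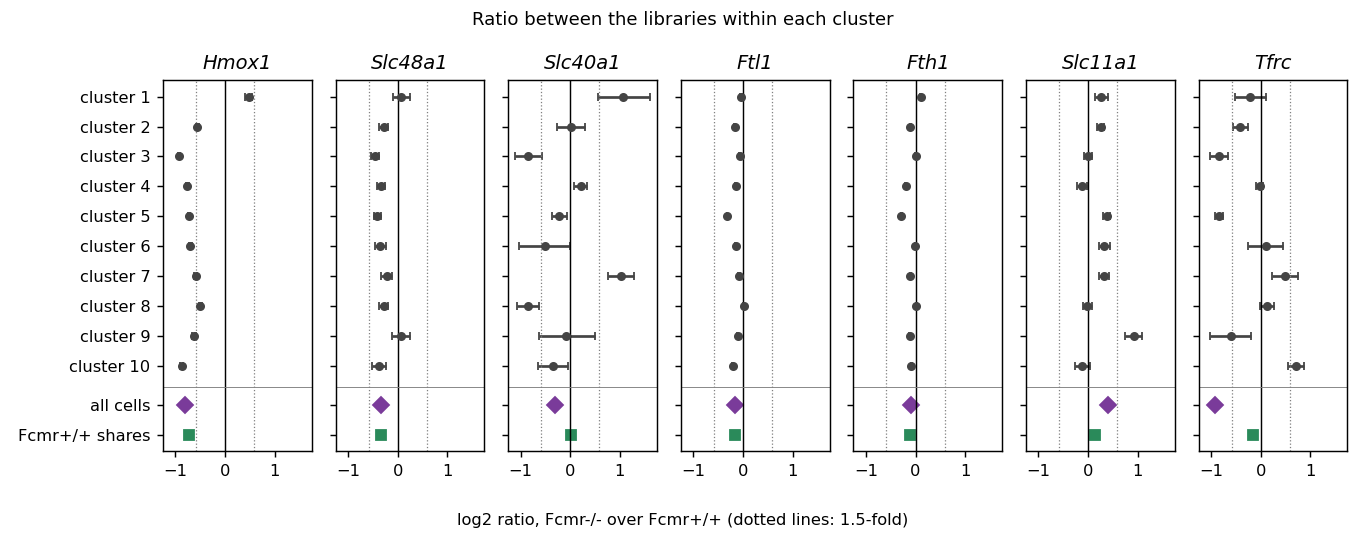
Log2 ratio of Fcmr-/- to Fcmr+/+ levels within each cluster (points with 95% counting intervals), over all cells (diamond) and with clusters weighted to the Fcmr+/+ shares (square), for 7 genes; dotted lines mark 1.5-fold. Hmox1 is left of 0 in 9 of 10 clusters and at both summary marks, while Tfrc is at -0.93 over all cells and -0.16 at the Fcmr+/+ shares.

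Shares of cells gave the fourth comparison. Because Fcmr+/+ cells had more UMIs per cell, cells were thinned to 5000 UMIs each, which left out 0 cells. After thinning, 93.7% of Fcmr+/+ and 89.1% of Fcmr-/- cells had a Hmox1 UMI (99.0% and 96.9% before). The median was 6 UMIs in Fcmr+/+ and 4 in Fcmr-/- cells, and the upper end differed more, with at least 51 UMIs in 7.19% and 2.78% of cells. Hmox1 was uneven in both libraries, since the 10% of cells with the most UMIs held 46.1% and 52.0% of all Hmox1 UMIs, against 25.5% and 25.7% for Fth1.

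Tfrc was found in 24.1% of thinned Fcmr+/+ and 16.9% of thinned Fcmr-/- cells (45.5% and 32.9% before), and in 52.1% of all cells of cluster 4 against 6.76% in cluster 6. Slc40a1 was found in 8.89% and 6.83% (19.4% and 14.5% before), with 19.6% in cluster 4 and 2.11% in cluster 6. Slc48a1 too was found in fewer Fcmr-/- cells, 53.0% and 46.6% of thinned cells (82.7% and 72.8% before), and Slc11a1 in more, 52.6% and 61.9% (84.7% and 85.7% before). For Cp the shares were 0.598% and 1.34%, too near the level of a single UMI to be read as a difference. Among the barcodes kept, 9 had fewer than 5 UMIs of the macrophage list (1 Fcmr+/+ and 8 Fcmr-/-, median 5794 UMIs unthinned). These 9 had 240.4 CPM of Hmox1 (interval 135 to 396). Free RNA and RNA of other cell types cannot be told apart in them. All 9 held ferritin, at 3959 CPM of Fth1 and 2339.9 CPM of Ftl1, so that ferritin in every cell was not read as expression by every cell, and 1 held the single UMI of Slc48a1 (16.0 CPM). They had 0 UMIs of Tfrc, Slc40a1, Slc11a1 and Cp, for which the exact interval reaches 59.1 CPM. Their 15 Hmox1 UMIs lay in 7 of the 9 cells, so a single Hmox1 UMI was not read as expression.

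**Figure D4:**
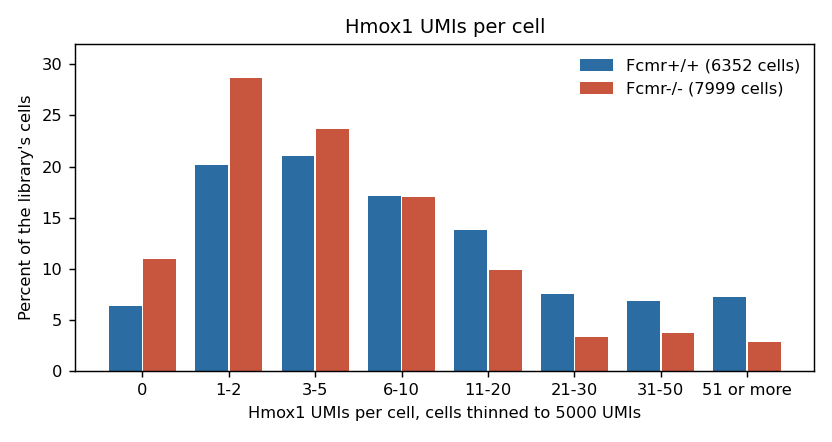
Percent of each library's cells (bars; Fcmr+/+ blue, 6352 cells; Fcmr-/- red, 7999 cells) by Hmox1 UMIs per cell after thinning to 5000 UMIs. Classes up to 5 UMIs hold more of the Fcmr-/- cells and classes from 11 UMIs more of the Fcmr+/+ cells, with 7.19% and 2.78% at 51 or more.

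Co-expression was read over the 14351 thinned cells, as a description, since cells share their libraries. The ferritin chains were the closest pair, with a Spearman correlation of 0.64 (0.57 as the median within clusters and libraries). Hmox1 went with Ftl1 (0.39), Fth1 (0.37) and Slc48a1 (0.31), and the within-cluster medians were 0.29, 0.27 and 0.27. With Tfrc it was -0.00645 and with Slc40a1 0.16, in counts that were sparse. Tfrc and Slc40a1, though alike across clusters, had a correlation over cells of 0.09, and of 0.01 as the median within clusters.

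Cells with much Hmox1 carried more of the rest of the heme route. Cells were divided by fixed numbers of Hmox1 UMIs after thinning, a range of levels and not a cell type. The class of 0 to 2 UMIs held 26.4% of Fcmr+/+ and 39.6% of Fcmr-/- cells, and the class of 31 or more held 14.1% (893 cells) and 6.44% (515 cells). In Fcmr+/+ cells, from the lowest class to the highest, Slc48a1 went from 105 to 357 CPM and Slc40a1 from 11.4 to 97.4 CPM. Fth1 went from 19074 to 39168 CPM and Ftl1 from 15517 to 28626 CPM. Tfrc went from 123 to 67.4 CPM, with 128 and 92.3 CPM in the classes between, so that the class with the most exporter had the least importer. From cell to cell the 2 were not opposed. A Tfrc UMI was found in 38.9% of thinned Fcmr+/+ cells with a Slc40a1 UMI and in 22.7% of those without. In Fcmr-/- cells these shares were 23.4% and 16.4%.

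Within a class, the libraries were close for heme entry and the ferritin light chain. In the highest class, Slc48a1 was 357 CPM in Fcmr+/+ and 371 CPM in Fcmr-/- cells, and Ftl1 28626 and 28232 CPM. In the lowest class, Slc48a1 was 105 and 97.6 CPM, and Ftl1 15517 and 15613 CPM. Fth1 was higher in Fcmr-/- cells in every class, with 19074 and 21871 CPM in the lowest and 39168 and 40832 CPM in the highest. Slc40a1 differed in direction between classes, with 11.4 CPM in Fcmr+/+ and 14.0 CPM in Fcmr-/- cells at 0 to 2 UMIs, 15.7 and 13.3 CPM at 3 to 10, 40.5 and 35.3 CPM at 11 to 30, and 97.4 and 135 CPM at 31 or more. Its counting intervals in the libraries overlapped in all classes but the highest. They leave out the spread between cells. Over all thinned cells the variance of Slc40a1 UMIs was 2.94 times the mean in Fcmr+/+ and 3.46 times in Fcmr-/- cells. The gap in the highest class was thus not read as a difference. Tfrc was lower in Fcmr-/- cells in every class, with 123 and 57.2 CPM in the lowest and 67.4 and 37.7 CPM in the highest. Gclm, which makes a subunit of the enzyme for glutathione synthesis, is a target of Nrf2, the factor that also drives Hmox1. Chosen after its values had been seen, Gclm went from 34.7 to 373 CPM in Fcmr+/+ and from 39.0 to 425 CPM in Fcmr-/- cells. The whole list of Nrf2 targets rose less in proportion. Its sum went from 1945 to 5488 CPM in Fcmr+/+ and from 2156 to 6712 CPM in Fcmr-/- cells. Most of that sum was Prdx1, which went from 1640 to 4347 CPM in Fcmr+/+ and from 1843 to 5414 CPM in Fcmr-/- cells. Beside these, the melanoma list was 69.6 and 91.6 CPM in the lowest and highest class of Fcmr+/+ cells and 98.2 and 103 CPM in those of Fcmr-/- cells. The erythroid list varied more, from the lowest class to the highest 0.715, 146, 2.36 and 26.4 CPM in Fcmr+/+ cells and 2.40, 23.0, 44.3 and 12.0 CPM in Fcmr-/- cells, and its part in these levels was not tested. It was lowest in the lowest class of both libraries and did not follow the order of the classes in either. Before thinning, 10 cells held 96.5% of hemoglobin UMIs in the Fcmr+/+ and 90.2% in the Fcmr-/- library. These class values thus depend on where a few cells fell. The list of stress genes was 4895 and 4581 CPM, and 4062 and 3879 CPM.

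**Figure D5:**
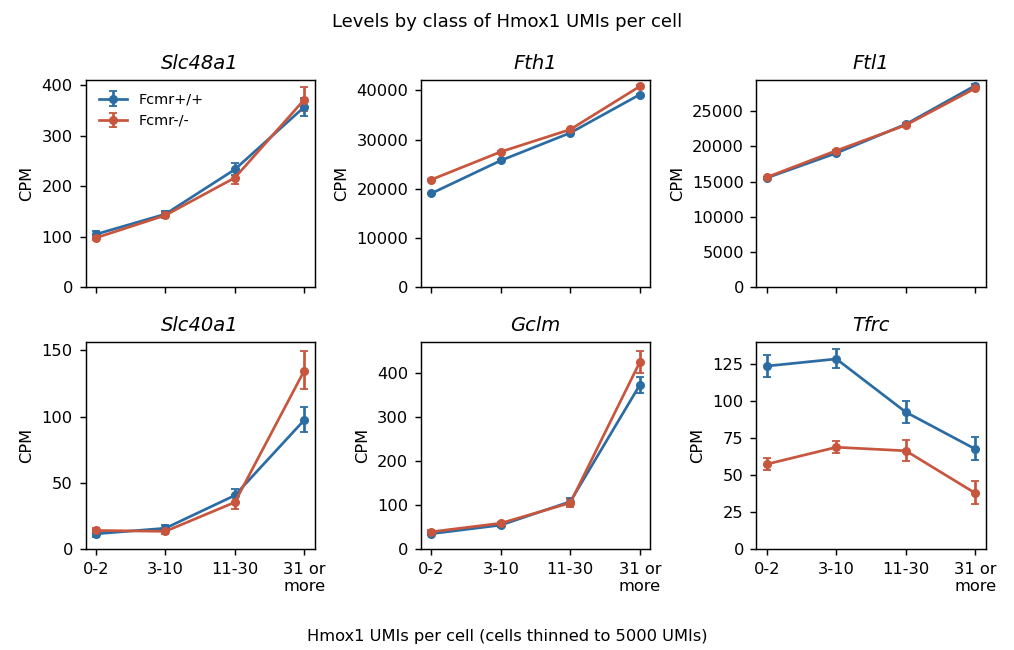
Levels (CPM, linear axes from 0) of 6 genes in cells grouped by Hmox1 UMIs after thinning to 5000 UMIs, for Fcmr+/+ (blue) and Fcmr-/- (red); bars are exact 95% Poisson intervals. Slc48a1, Fth1, Ftl1, Slc40a1 and Gclm are highest in the class of 31 or more in both libraries, and Tfrc is lowest there.

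A wider list had 85 genes in 9 groups, without the 8 members: genes of iron and heme metabolism, regulators and Nrf2 targets. Of the list, 52 genes had at least 10 CPM. Of these, 4 were at least 1.5-fold lower in Fcmr-/- cells and 0 higher, with a median log2 ratio of -0.04, beside the 1.504% lower and 2.43% higher among all genes. The wider list too was chosen with earlier results of these data known, so its counts are a description. The 4 lower genes were Cd163, Hp, Slco2b1 and Maff. Cd163, the receptor for hemoglobin bound to haptoglobin, had 26.5 and 9.35 CPM (log2 ratio -1.41), and was lower in 9 of 10 clusters, by log2 ratios down to -2.16 in cluster 7. Hp, haptoglobin, had 21.8 and 12.9 CPM (log2 ratio -0.71), also lower in 9 clusters. Slco2b1, a membrane carrier of organic anions, had 13.2 and 5.79 CPM (log2 ratio -1.07), and Maff, a small Maf protein that partners Nrf2 and Bach1, had 34.0 and 19.9 CPM (log2 ratio -0.74), lower in 10 of 10 clusters. At the Fcmr+/+ cluster shares the log2 ratios were -0.63 for Cd163, -0.74 for Hp, -0.62 for Maff and -0.32 for Slco2b1.

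With the 8 members, Hmox1 and Tfrc among them, left out of every group, only the groups of heme uptake and of regulators held a gene past 1.5-fold. Of heme uptake genes 3 of 4 compared were lower, the other being Lrp1, the receptor for heme bound to hemopexin, with 381 and 409 CPM (log2 ratio 0.10). Of heme breakdown and heme export genes other than Hmox1, 0 of 4 differed by that much, and Blvrb, biliverdin reductase B, had 317 and 359 CPM (log2 ratio 0.18). Of iron import genes other than Tfrc it was 0 of 5, with Trf, transferrin itself, at 153 and 104 CPM (log2 ratio -0.55). Of ferritin-related and iron chaperone genes other than Fth1 and Ftl1 it was 0 of 3, with Pcbp2, which hands iron to ferritin, at 370.3 and 359 CPM (log2 ratio -0.05). Of the control of export it was 0 of 1, Hfe at 53.1 and 41.0 CPM (log2 ratio -0.36). Of iron sensing it was 0 of 3, with Fbxl5, the ligase that removes iron regulatory protein 2, at 63.2 and 67.3 CPM (log2 ratio 0.09) and Ireb2, that protein, at 19.6 and 22.8 CPM (log2 ratio 0.21). Of heme synthesis and mitochondrial iron it was 0 of 15, with Iscu, the scaffold for iron-sulfur clusters, at 103 and 93.2 CPM (log2 ratio -0.14) and Cpox, a heme synthesis enzyme, at 9.30 and 11.7 CPM (log2 ratio 0.30). Of Nrf2 targets other than the members it was 0 of 8 with a median of -0.24, and Prdx1, the most abundant, had 2496 and 2429 CPM (log2 ratio -0.04). Of regulators it was 1 of 9, Maff, while Maf had 414 and 444 CPM (log2 ratio 0.10), Hif1a 113 and 134 CPM (log2 ratio 0.25) and Nr1h3, which encodes the sterol receptor LXRα, 27.3 and 38.6 CPM (log2 ratio 0.49).

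Across the 20 sums of cluster and library the members followed different sets of genes. Pearson r on log2 levels was computed for 5255 genes that reached 20 CPM, as a description over sums that share cells and depth. The 3 genes most like Hmox1 were Fam177a (r = 0.81), Msra (r = 0.80) and Ninj1 (r = 0.79). For Slc48a1 they were Akr1a1 (r = 0.94), Syngr1 (r = 0.94) and Cd63 (r = 0.93). For Fth1 they were Lgals3 (r = 0.94), Esd (r = 0.94) and Adam8 (r = 0.92), and for Ftl1 Gstm1 (r = 0.93), Gpnmb (r = 0.91) and Slc6a8 (r = 0.90). For Slc40a1 they included Glb1 (r = 0.92) and Tmem106c (r = 0.92), and for Tfrc they were Cnrip1 (r = 0.94), Glb1 (r = 0.91) and Nqo2 (r = 0.91). Glb1, a lysosomal enzyme, was thus among the nearest to both exporter and importer. For Slc11a1 they were Nr1h3 (r = 0.87), Cyba (r = 0.85) and Cyp4v3 (r = 0.84), and for Cp Dpysl2 (r = 0.84), Siglec1 (r = 0.83) and Zfp148 (r = 0.82). Cp itself was under 10 CPM in both libraries, so its values of r rest on low counts.

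Set against the summed level of state lists over the same 20 sums, Hmox1 had an r of -0.80 with the type II interferon list, -0.69 with the MHC class II list and 0.59 with the Nrf2 targets. Ftl1 had 0.83 with the Nrf2 targets and -0.83 with the MHC class II list. The sum of the Nrf2 targets was mostly Prdx1, at 2496 of 2990 CPM in Fcmr+/+ and 2429 of 2856 CPM in Fcmr-/- cells. Fth1 had 0.72 with the Mmp12 list and 0.72 with the hypoxia list, its largest values. For Slc40a1 and Tfrc the largest were -0.83 and -0.87 with Arg1, followed for Tfrc by -0.78 with the monocyte list and for Slc40a1 by -0.79 with the Nos2 list and -0.79 with the monocyte list, while with the hypoxia list they had -0.72 and -0.64. Slc48a1 had -0.83 with the monocyte list, and Cp, from low counts, -0.67 with the Mmp12 list. Slc11a1 stayed between -0.46 and 0.40 with every list. The type II interferon list was itself unequal between the libraries, at 122 CPM in Fcmr+/+ and 651 CPM in Fcmr-/- cells. Its relation to Hmox1 thus cannot be told apart from the difference between libraries in these sums. Other lists were unequal to a smaller degree, among them Nos2 (73.0 and 276 CPM), MHC class II (4919 and 7126 CPM) and monocyte (392 and 585 CPM). The same limit holds for their values of r. The Nos2 sum also counted the gene Irg1 under both of its names, Irg1 and Acod1.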

How the data were processed

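The study sorted TMPs from B16 tumors of Fcmr+/+ and Fcmr-/- mice and made 1 droplet library of each. Per the labels and methods, the deposited matrices hold UMI counts, not normalized, that the authors made with Cell Ranger on GRCm38 (mm10); the version of Seurat in the submitters' processing notes is 2.1.0. The study's limits were kept: genes in at least 3 cells, 200 to 7000 genes per cell and at most 30% mitochondrial UMIs. Depth was 131062107 and 125802196 UMIs as deposited. UMIs were summed per group of cells and given as CPM. Log2 ratios used a pseudocount of 1 CPM, genes compared had at least 10 CPM in either library, and no p-value was computed. Intervals are exact Poisson (levels), Clopper-Pearson (shares) or from the exact binomial split of UMIs (ratios). Clusters came from Seurat 5.3.0 in R 4.3.3 (10 principal components, 30 neighbors, Louvain resolution 0.8), with 13 iron and heme genes removed from 1336 variable genes. Other steps used Python 3.11.15, numpy 2.4.6, scipy 1.17.1, scanpy 1.11.5 and edgeR 4.0.16 (TMM factors only). Scrublet called 1 and 0 doublets, so it did not work here, and the highest 5% of scores were removed as an alternative. Ratios and intervals were tested on simulated data. The 8 members and all lists were chosen with earlier results of these data known. The text names the members, Fcmr, the 5 highest and 5 lowest genes and the most abundant gene of each group of the wider list, the 3 genes most like each member, leading genes of clusters and markers; the copy Ftl1-ps1 was matched by its identifier, and Ftl2 had no row. Some genes that this rule names are not reported here.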

Additional observations from a re-analysis of the deposited data

Results flagged for a closer look

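Slc40a1 was flagged because its difference between the libraries pointed both ways past 1.5-fold in different clusters. Its log2 ratio (Fcmr-/- over Fcmr+/+) was 1.07 in cluster 1 and 1.02 in cluster 7, but -0.84 in cluster 3 and -0.85 in cluster 8. Cluster 1 rested on 89 Fcmr+/+ cells. In thinned cells of cluster 7, Slc40a1 was found in 4.80% of Fcmr+/+ and 10.0% of Fcmr-/- cells, and in cluster 8 in 11.2% and 7.24%. Whether the clusters differ was not tested.

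Tfrc was flagged for the same reason, with log2 ratios of -0.84 in cluster 3, -0.83 in cluster 5 and -0.61 in cluster 9 and of 0.71 in cluster 10. Without cells holding 3 or more melanoma UMIs, the differences in clusters 5 and 10 fell short of 1.5-fold. That filter left out 1321 Fcmr+/+ and 1685 Fcmr-/- cells in all, and the part of melanoma RNA was not tested. Tfrc was found in 39.8% of Fcmr+/+ and 28.2% of Fcmr-/- thinned cells of the dividing cluster 5, and in 24.1% and 26.0% of those of cluster 10. This difference between clusters was not tested either.

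Hemoglobin transcripts lay outside the comparisons of the report. In all, 5044 UMIs of hemoglobin genes were found in 228 of 14351 cells, and 92.2% of them in 10 cells, 1 of which held 2922. Cluster 6 held 4144 of these UMIs in 27 cells, of which 7 had 3 or more. In the cells of cluster 6 without any hemoglobin UMI, 616 Fcmr+/+ and 778 Fcmr-/- cells, Fth1 was 45885 and 45986 CPM and Hmox1 3833 and 2330.2 CPM, close to the levels of the whole cluster.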

How the results depend on the processing

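The count of members at least 1.5-fold lower in Fcmr-/- cells was 2 (Hmox1 and Tfrc) in the report, and it was 1 with clusters weighted to the Fcmr+/+ shares or without cluster 4 (Hmox1 in both) and 0 with clusters weighted equally, where Hmox1 had a log2 ratio of -0.58 and Tfrc -0.15. The count higher was 0, and 1 (Cp) with no filter on low values. Over 16 alternatives of scaling, pseudocount, filters, doublet scores, thinning and weighting, Hmox1 ran from -0.81 to -0.58, Slc48a1 from -0.35 to -0.26, Slc11a1 from 0.14 to 0.43 and Tfrc from -0.94 to -0.15, none of these 4 changing sign, while Slc40a1 ran from -0.35 to 0.02. Leaving out each cluster in turn moved Hmox1 between -0.89 and -0.74 and Fth1 between -0.14 and 0.01. Under the 5 other clusterings Hmox1 was lower in 6 of 6, 13 of 13, 8 of 10, 9 of 9 and 9 of 9 clusters with enough cells of both libraries. The weighting to shares and the omission of clusters were chosen after seeing the data. No paired analysis was possible because each genotype has 1 library. The low counts of Cp and Slc40a1 limit what can be read in single cells, and 1 library per genotype limits every comparison between them.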

Other observations

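Other genes of the wider list, many of them Nrf2 targets, had their own places among the clusters. They are named here after their values had been seen and given as a description. With both libraries summed, the cystine carrier Slc7a11 was highest in the hypoxia-high cluster 6 (170.5 CPM, against 37.4 CPM in cluster 4), as was Fbxl5 (101 CPM, against 44.3 CPM in cluster 4). Fbxl5 was nearly as high in cluster 9 (97.2 CPM). In Fcmr+/+ cells alone, Slc7a11 was highest in cluster 3 and Fbxl5 in cluster 9. The Nrf2 targets Gclm (216 CPM), Srxn1 (148 CPM) and Txnrd1 (144 CPM) were highest in cluster 10 in both libraries, the cluster with the most Hmox1. Other Nrf2 targets were highest elsewhere. Prdx1 was highest in cluster 8 (4104 CPM), and Gclc (50.5 CPM) and Gsr (54.6 CPM), like Slc7a11, in cluster 6. G6pdx was highest in clusters 4 and 1 (61.7 and 61.6 CPM). Haptoglobin was highest in cluster 2 (51.9 CPM) and lowest in cluster 10 (2.03 CPM). Cd163 was highest in clusters 2 and 4 (37.3 and 35.9 CPM, against 3.18 CPM in cluster 6).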
